A study of Homo sapiens with 3 samples.

Results

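The 8-oxodG peaks on chromosome 11 numbered 1078, of 23641 in the whole list, and were taken as every row of the deposited peak list whose chromosome is 11. The DNA came from G0-arrested MCF10A, an established cell line that grows from normal breast epithelium and does not form tumours; cells in G0 have left the cell cycle. DNA fragments bound by an antibody against 8-oxo-7,8-dihydro-2'-deoxyguanosine (8-oxodG) were sequenced, an assay called DIP-seq. All 3 samples, from 2 experiments, are 1 group, and the labels name neither a treatment nor another condition. Cells grew in DMEM-F12 with horse serum; the sources used here do not say how they were arrested. The authors deposited 1 list for the samples together, so no value below has a replicate error.

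8-oxodG forms when reactive oxygen species oxidise guanine in DNA. It can pair with adenine during replication, and base excision repair, started by the glycosylase OGG1, removes it. Chromosome 11 joins regions of very different character. The end of its short arm, 11p15.5, carries imprinted genes, expressed from 1 parental copy, among them the growth factor gene IGF2, the non-coding RNA gene H19 and the cell cycle inhibitor gene CDKN1C. In the gene order of RefSeq (GRCh38.p14), H19 is followed by IGF2, the insulin gene INS and TH, which encodes tyrosine hydroxylase, and CDKN1C comes after KCNQ1, a potassium channel gene. The chromosome also holds 376 of the 872 olfactory receptor genes and pseudogenes that RefSeq names (43.1%), which encode the odorant receptors of the nose. Band 11q13 holds CCND1, which encodes cyclin D1, the partner of CDK4 and CDK6 in leaving G1, and is a site of amplification in breast tumours. In the RefSeq order CCND1 is followed by LTO1, FGF19, FGF4, FGF3 and ANO1.

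The chromosome was described in 5 zones of hg18 bands, the build that the submitters' processing notes name. These were 11p15.5, the olfactory receptor bands 11p15.4, 11q11 and 11q12.1, the bands 11q13.1 to 11q13.5, the rest of 11q, and the rest of 11p. Genes are named by the band they are known for, and their positions on hg18 were not checked, so no peak was assigned to a gene. Each peak has a width, a pileup, which is the number of fragments stacked at its summit, and a fold enrichment over the local background, which is the authors' own value. Background, in fragments at the summit, was derived from these 2 values. Density counts peaks by midpoint in each Mb of contig sequence, with an exact Poisson interval of 95%. Intervals on medians and on shares of peaks come from the binomial distribution. All of these cover counting error only, and they treat peaks as independent, which neighbouring peaks need not be.

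As a whole, chromosome 11 held peaks at an ordinary density. It had 8.22 peaks per Mb (95% interval 7.74 to 8.73) in 131.1 Mb of sequence, against 8.35 (8.24 to 8.46) on the other chromosomes, and stood 12th of 23. A negative binomial fit over all 826 bands with sequence, with the Giemsa stain class as a covariate, gave a ratio of 1.05 (95% interval 0.879 to 1.26). This interval carries the spread between bands and spans 1. Peaks were somewhat smaller than on the other chromosomes pooled. Among the 23 chromosomes the median width ranked 18th and the median pileup 12th, a rank shared with others. The median width was 436 bp (426 to 443) on chromosome 11, against 453 bp (450 to 455) on the other chromosomes, and the median pileup was 23 fragments (22 to 24), against 25. The median fold enrichment was 11.3 (10.7 to 11.8), against 11.7 (11.6 to 11.8).

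The tallest peaks were scarcer on chromosome 11 than on the other chromosomes pooled. A pileup of at least 80 was reached by 2.97% of its peaks (32 of 1078; 2.04 to 4.16%), against 5.69% on the other chromosomes (5.39 to 5.996%). Median background was 0.944 fragments on chromosome 11, against 1.01 on the other chromosomes. Of the 42 arms with a peak, 8, none on chromosome 11, had a median background of 1.3 times the median arm's or more, a limit set after the data were seen. Without these arms the other chromosomes had a median background of 0.944, a median width of 446 bp and a median pileup of 24. Their share of peaks with a pileup of at least 80 was not counted without these arms. Light and dark bands differed on chromosome 11 much as elsewhere. Its 17 Giemsa-negative bands held 9.85 peaks per Mb, against 9.54 in those of the other chromosomes. Its 6 bands of the darkest class, gpos100, held 6.15, against 5.16.

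Density varied widely along the chromosome. The highest was 29.3 peaks per Mb in 11p15.5, and the lowest, among bands with at least 1 peak, 3.59 in 11q11 beside the centromere. Counted per Mb, in 131 windows that were at least 0.5 sequence, peaks ranged from 0 to 36 with a mean of 8.15 ± 5.73 (SD over windows). The 5 fullest windows all lay in 2 places. In 11p15.5, the window from 1 to 2 Mb held 36 peaks and that from 2 to 3 Mb, which reaches into 11p15.4, held 30. In 11q13 the windows starting at 69, 68 and 70 Mb held 29, 24 and 24.

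**Figure D1:**
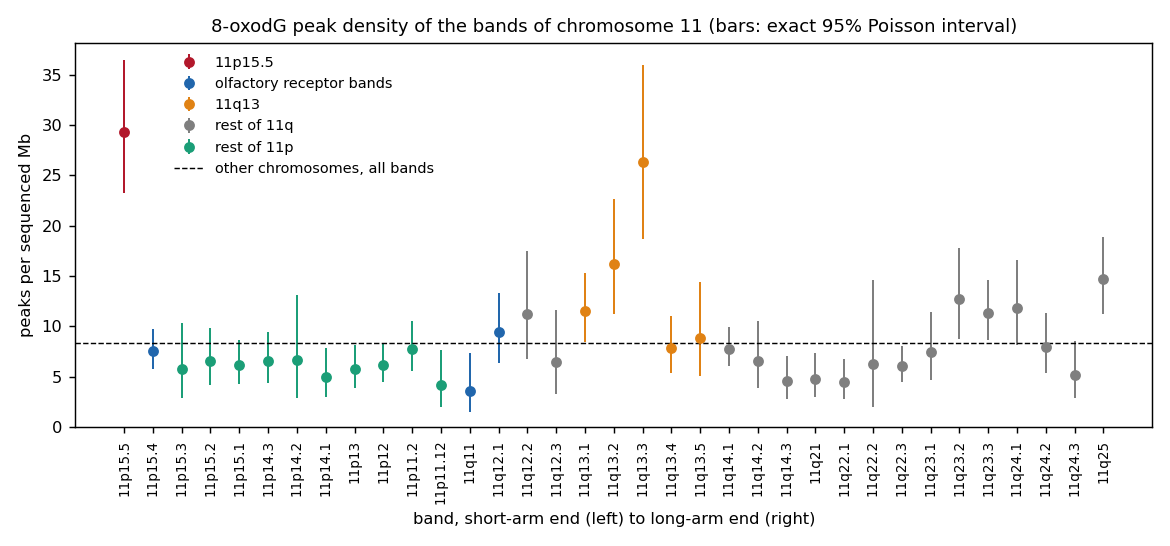
Peaks per sequenced Mb (vertical axis) in each band of chromosome 11 that holds a peak, from the end of the short arm at the left to the end of the long arm at the right. Points are densities, bars are exact 95% Poisson intervals, colours are zones and the dashed line is the density of the other chromosomes (8.35). 11p15.5 (29.3) and 11q13.3 (26.3) stand above all other bands, and most of 11p and of 11q14 to 11q22 lie under the line.

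No single band of chromosome 11 passed the test over all bands. With a 2-sided tail probability in the same fit for each band, and Benjamini-Hochberg adjustment over the 826 bands, 0 of its 36 bands were called denser at an adjusted p under 0.05, where 0.484% of all bands were. Likewise 0 were called sparser, where 0.0% of all bands were. At an unadjusted p under 0.05, 2 of the 36 bands were denser, where 3.51% of all bands were, and 0 were sparser, where 0.484% of all bands were. In this negative binomial fit the 2 were 11p15.5, with 3.12 times the count fitted for its stain class (p = 0.00456, adjusted p = 0.307), and 11q13.3, with 2.81 times (p = 0.0158, adjusted p = 0.568).

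**Figure D2:**
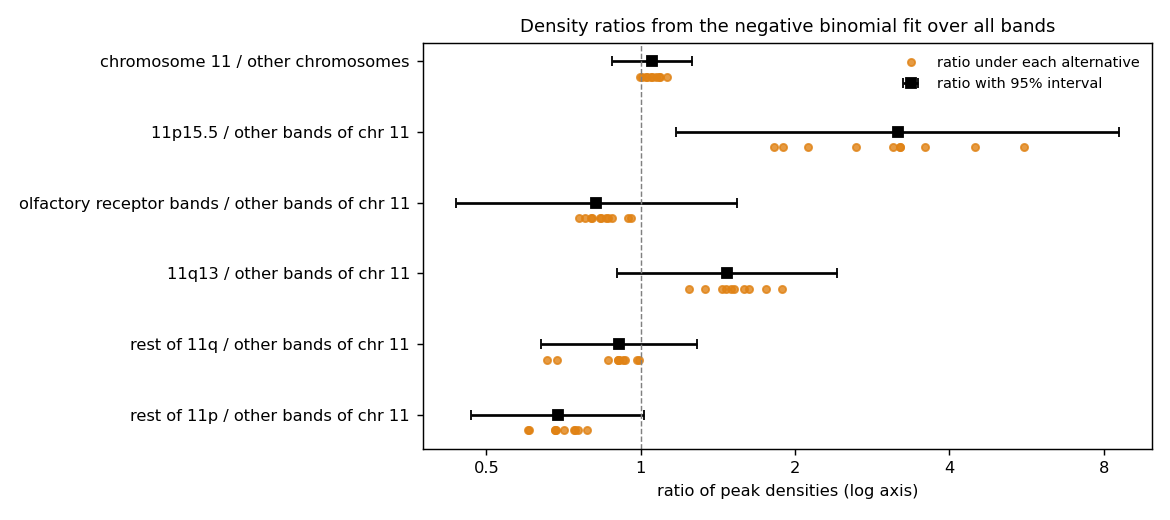
Ratios of peak densities on a log axis, for chromosome 11 over the other chromosomes and for each zone over the other bands of chromosome 11. Squares with bars are the ratios and 95% intervals of the negative binomial fit over all bands, and the orange points below them are the ratios under each alternative. Of the 6 intervals drawn, that of 11p15.5 (1.17 to 8.58) alone lies wholly on 1 side of 1.

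The end of the short arm, 11p15.5, was the densest band of the chromosome and had the highest median width and median pileup of its bands. It held 80 peaks in 2.73 Mb, or 29.3 per Mb (23.2 to 36.4), against 7.77 (7.30 to 8.27) in the rest of chromosome 11. With 2.08% of the chromosome's sequence it held 7.42% of its peaks and 14.2% of the bases they cover. Given its stain class, the fit put its density at 3.17 times that of the other bands of the chromosome (95% interval 1.17 to 8.58). The interval spans 1 once the outermost band of an arm has a term of its own (ratio 1.82, 0.697 to 4.75). In alternatives chosen after the data were seen it also spans 1, with the background of each band as a term (1.89, 0.828 to 4.32) and with peaks within 10 kb joined (2.12, 0.947 to 4.75).

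Peaks of 11p15.5 were both wide and tall. The median width was 751 bp (631 to 896), against 428 bp (418 to 436) in the rest of the chromosome, and ranked 2nd of the 693 bands in the whole list with at least 10 peaks. Peaks of at least 1 kb made up 28.8% (23 of 80; 19.2 to 39.96%), against 3.31% (2.29 to 4.61%) in the rest. The median pileup was 41 fragments (34 to 49), against 22 (21 to 23). The median fold enrichment was 14.5 (12.4 to 17.0), against 11.03 (10.5 to 11.5). It ranked 55th of the 693 bands, below 11q12.1 (15.1) and 11q21 (14.98) on the same chromosome. The background at the summit was raised as well, with a median of 1.57 fragments, against 0.944 in the rest, and its part in these values was not tested beyond the fit above.

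Widths were also set side by side at like pileup. Among peaks of pileup 20 to 39, the median width was 593 bp in 11p15.5 (459 to 723, 26 peaks), against 440 bp in the rest of the chromosome (432 to 454, 377 peaks). Among those of 40 or more it was 935 bp (808 to 1170, 43 peaks), against 625 bp (587 to 649, 203 peaks). Among the lowest, of 10 to 19, it was 379 bp (288 to 797, 11 peaks), against 352 bp (341 to 366, 418 peaks), and the intervals overlap. Background differed within these classes too, at 2.20 fragments in 11p15.5 against 1.20 in the rest among peaks of 40 or more, and 8 of the 43 lay in 1 run of neighbouring peaks; their part was not tested. Within each class the median fold of 11p15.5 was the lower one, at 7.98 against 8.41, 12.41 against 13.46, and 18.8 against 23.7, whereas over all peaks it was the higher. Background is computed from pileup and fold, so at like pileup these folds are not a measure separate from background.

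The 3 peaks of highest fold enrichment in 11p15.5 were far apart. The first (1333887 to 1334886) reached a pileup of 116 at a fold of 48.4. The next (2173883 to 2175178) had the highest pileup on the chromosome, 140, with a fold of 46.3 over a background of 2.04. The last (1106700 to 1107330) reached a pileup of 79 at a fold of 43.3. A further tall peak (1822577 to 1823496) reached a pileup of 118 at a fold of 37.2. Within the band, counts per 250 kb were between 1 and 10 in the 7 outer windows, and 13 and 20 in those from 1.75 and 2 Mb. They were down to 6 and 1 in the windows from 2.25 and 2.50 Mb.

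Inside the fullest of these windows lay a run of 11 peaks set nearly end to end. It spanned 29130 bp (2019357 to 2048486), of which the peaks covered 81.3%, and 9 of its 10 gaps were under 1 kb. The widest peak of chromosome 11 is in it (2037046 to 2041075, 4030 bp, pileup 54, fold 17.2). The next widest were also members, with 3970 bp (from 2028093, fold 20.6), 3898 bp (from 2024021, fold 14.8) and 3276 bp (from 2032340, fold 16.4). The fifth (2102680 to 2105312, 2633 bp) lies outside the run in the same band. Pileups in the run ranged from 13 to 71 with a median of 52, and folds from 7.25 to 20.6 with a median of 15.36, so its peaks were broad and, with 8 of 11 at a pileup of 40 or more, tall for the chromosome, at folds of moderate size. The background had a median of 2.20 fragments. Whether reads map uniquely there was not tested.

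Runs of this kind were rare. With gaps under 1 kb, the first 9 of these peaks form 1 of the 3 runs of 9 peaks in the list, the most in any of its 629 runs. The others lie in 10p11.1 and 4p11, beside centromeres. On chromosome 11 the remaining 27 runs were pairs. Without the 11 peaks, 11p15.5 still had 25.2 peaks per Mb (19.6 to 31.9), a median width of 687 bp (567 to 882) and a median pileup of 40 (32 to 47).

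**Figure D3:**
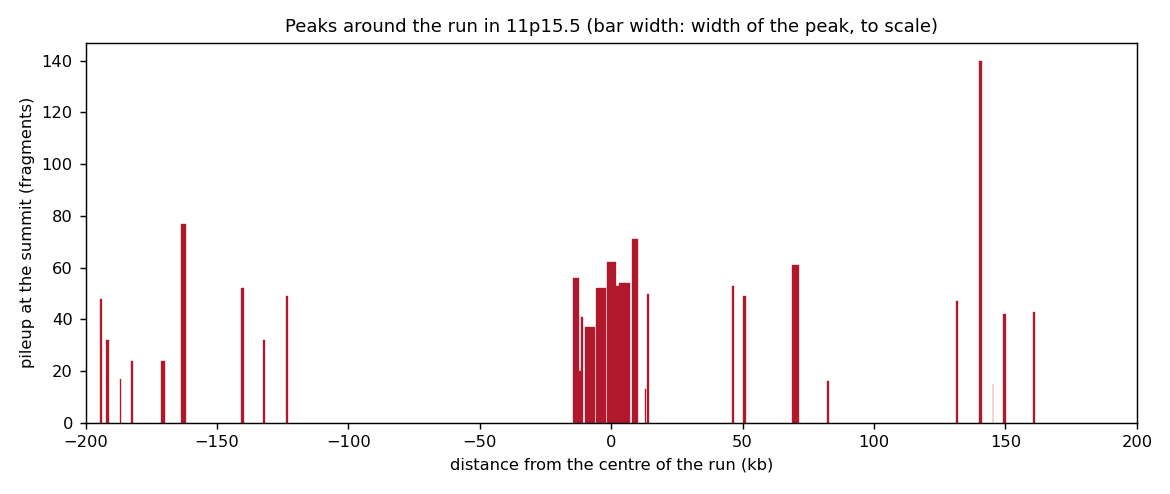
Pileup at the summit in fragments (vertical axis) of each peak within 200 kb of the centre of the run in 11p15.5, by distance in kb (horizontal axis). Each bar is 1 peak, as wide as the peak is. The run of 11 peaks fills the centre with pileups of 13 to 71, and the tallest peak, with a pileup of 140, stands apart from it to the right.

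11p15.5 was set beside the other chromosome ends. Among the 41 outermost bands of chromosome arms its density ranked 3rd, with a median of 15.52 per Mb over the 39 of other chromosomes and a highest value of 32.4. Its median width of 751 bp ranked 1st among the 40 with at least 10 peaks, above the highest of the others, 723 bp, and their median of 519 bp. Without the run its median width of 687 bp ranked 2nd. Its median pileup of 41 ranked 2nd and its background of 1.57 ranked 3rd. The end of the long arm differed from it in each of these. 11q25 held 61 peaks, or 14.7 per Mb (11.2 to 18.9), close to the median of the other ends. Its median width of 436 bp ranked 35th, its median pileup of 21 ranked 38th and its median fold of 9.30 ranked 39th of the 40. 11q25 was thus dense for the chromosome, and its peaks were low and narrow among chromosome ends. Beside chromosome 11 as a whole they were ordinary in width (median 436 bp in both) and background (0.944 in both). Their median pileup was 21 against 23, and their median fold 9.30 against 11.3.

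**Figure D4:**
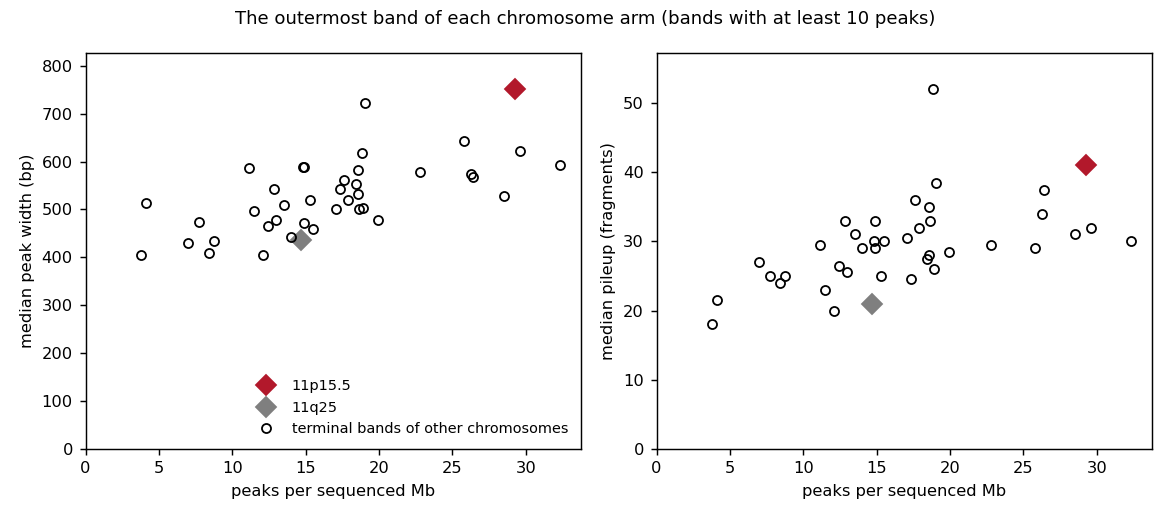
Median peak width in bp (left) and median pileup in fragments (right) against density in peaks per sequenced Mb for the outermost band of each chromosome arm with at least 10 peaks. Diamonds are 11p15.5 and 11q25, and circles are the 38 bands of other chromosomes. 11p15.5 has the greatest median width (751 bp) and the second greatest median pileup (41), while 11q25 (436 bp and 21) lies low in both.

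The long-arm band 11q13 held the next fullest windows of the chromosome. Its 5 subbands held 168 peaks in 13.6 Mb, or 12.4 per Mb (10.6 to 14.4), against 7.74 (7.25 to 8.26) in the rest of chromosome 11. In the fit the ratio was 1.47 (95% interval 0.900 to 2.42), which spans 1. It no longer spans 1 without the stain class (1.76, 1.03 to 2.98) or with a term for outermost bands (1.63, 1.02 to 2.60), and was 1.24 (0.821 to 1.88) with band background as a term and 1.33 (0.888 to 2.0002) with peaks within 10 kb joined. The density was uneven. It was 11.5 per Mb in 11q13.1, the band of the tumour suppressor gene MEN1, 16.2 in 11q13.2 and 26.3 (18.7 to 36.0) in 11q13.3. 11q13.3 is the band usually given for CCND1, but which of these hg18 subbands holds the gene was not checked. The density was 7.86 in 11q13.4 and 8.89 in 11q13.5. Together 11q13.2 and 11q13.3 held 20.4 per Mb (15.99 to 25.6), against 9.50 (7.69 to 11.6) in the other subbands of 11q13.

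Peaks in 11q13 had a median width of 487 bp (448 to 546), against 429 bp (418 to 438) in the rest of the chromosome, and a median pileup of 26 (24 to 29), against 23 (21 to 24). The median fold enrichment was 11.7 (10.7 to 13.6), against 11.15 (10.6 to 11.8), and these intervals overlap. The higher median widths were those of 2 subbands. Peaks of at least 1 kb were not confined to them, with 4 in 11q13.1 and 2 in 11q13.4, against 3 in 11q13.2 and 6 in 11q13.3. 11q13.2 and 11q13.3 had median widths of 584 and 576 bp, ranks 23 and 27 of 693 bands, and pileups of 28 and 37. The other 3 together had 446 bp (412 to 477), which overlaps the rest of the chromosome, and 11q13.5 had 397 bp. The background was 1.34 and 1.26 fragments there, against 0.944 in 11q13.1 and 11q13.4 and 1.15 in 11q13.5, which was neither dense nor wide-peaked. Peaks over a background of at least 2 fragments made up 17.9% of 11q13, compared with 37.5% of 11p15.5 and 7.05% of the rest of 11q.

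Around the border of 11q13.2 and 11q13.3 the counts per 250 kb formed a plateau. From 68.50 to 69.75 Mb they were 7, 12, 8, 10 and 9, after counts of 0 to 4 from 67.00 to 68.50 Mb. They fell to 2 in the window from 69.75 Mb and then held at 5 to 7 up to 71.00 Mb. The tallest peak of 11q13 (69099055 to 69099713, 11q13.2) reached a pileup of 104 at a fold of 36.4, and lies on this plateau. So does a peak of high fold in 11q13.3 (69616542 to 69617144), with a pileup of 81 over a background of 0.598 and a fold of 51.3. The strongest by fold lay elsewhere, in 11q13.1 (65040173 to 65040968), with a pileup of 103 at a fold of 55.3. In 11q13.4, one peak (71846557 to 71847330) had a fold of 49.7, another (71633215 to 71633896) a pileup of 102 over a background of 2.83, and the stretch from 73144762 to 74119589 had no peak, the second longest such stretch on the chromosome.

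The olfactory receptor bands and the rest of the chromosome had overlapping intervals in density, width, pileup and fold. Together they held 98 peaks in 13.15 Mb, or 7.45 per Mb (6.05 to 9.08), against 8.31 (7.79 to 8.84) in the rest of the chromosome, and the fitted ratio was 0.819 (95% interval 0.436 to 1.54). Median width was 416 bp (392 to 457), against 436 bp (427 to 447), and median pileup 21 (20 to 27), against 23 (22 to 24). The median fold was 11.6 (10.1 to 13.3), against 11.2 (10.6 to 11.8).

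The 3 bands had different values, but their intervals overlap in density, width, pileup and fold. 11p15.4, which also carries the beta-globin genes, held 60 peaks, or 7.59 per Mb (5.80 to 9.78), with medians of 406 bp in width, 20 fragments in pileup and 10.8 in fold. 11q12.1 held 31, or 9.39 per Mb (6.38 to 13.33), with medians of 487 bp and 28 fragments. Its median fold was 15.1, rank 31 of 693 bands, over a background of 0.849. 11q11 held 7 peaks, or 3.59 per Mb (1.44 to 7.40). Within 11p15.4 the window from 3 to 4 Mb, near the imprinted end, held 20 of the peaks.

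Single strong peaks did occur in these bands. The tallest (56755410 to 56756470, 11q12.1) had 124 fragments at its summit, a pileup shared by a peak in 11q23.3 and passed only in 11p15.5, and was enriched 51.1 times. In 11p15.4 a peak (3074618 to 3075171) had a fold of 34.7, another (4068618 to 4069136) a fold of 33.8 with a pileup of 88, and yet another (6633711 to 6634450) a pileup of 89 over a background of 2.67.

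The rest of 11q held 482 peaks in 61.1 Mb, or 7.89 per Mb (7.20 to 8.62), against 8.51 (7.84 to 9.23) in the other zones together, with a fitted ratio of 0.907 (95% interval 0.638 to 1.29). It was read in 3 stretches, set with the densities known. From 11q23 to 11q25 the density was 10.4 per Mb (9.15 to 11.7), from 11q14 to 11q22 it was 5.95 (5.15 to 6.84), and in 11q12.2 and 11q12.3 it was 8.82 (5.95 to 12.6). Against the counts fitted for stain the contrast was smaller: the outer stretch held 1.12 times the count fitted for its stain classes (254 peaks, 226 fitted) and the inner one 0.961 times (198 peaks, 206 fitted). The inner stretch includes 11q22.3, the band of the DNA damage kinase gene ATM, with 6.05, and the lowest values were 4.49 in 11q22.1, 4.55 in 11q14.3 and 4.79 in 11q21. The outer stretch includes 11q23.3, the band of KMT2A, a histone methyltransferase gene, with 11.3, beside 12.7 in 11q23.2 and 11.8 in 11q24.1. 11q24.3 was the low band within it, at 5.17.

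Peaks of the inner and outer stretches were narrow and low, much like those of the olfactory receptor bands and the rest of 11p. Those zones had median widths of 416 and 420 bp and median pileups of 21 and 23. Median widths were 414 bp (393 to 436) in the outer and 420 bp (398 to 433) in the inner stretch, and median pileups 21 (19 to 22) and 19 (17 to 24). Median folds were 10.1 (9.41 to 10.9) and 10.3 (9.35 to 11.97), and the intervals of the 2 stretches overlap in all 3 measures. A fold under 8 was found in 22.4% of peaks of the rest of 11q (18.8 to 26.4%), compared with 18.4% in the olfactory receptor bands, 17.3% in 11q13, 16.0% in the rest of 11p and 13.8% in 11p15.5 (7.07 to 23.27%), and with 16.7% on the other chromosomes. The intervals of the rest of 11q and of 11p15.5 overlap. Bands within the inner stretch varied. 11q14.3, 11q14.2 and 11q14.1 had median folds of 9.24 (7.53 to 15.96), 9.59 (7.84 to 16.8) and 9.78 (8.90 to 12.5), ranks 662, 634 and 611 of 693. Higher ranks were held by 11q21 (rank 34, median fold 14.98, 8.09 to 17.0), 11q22.1 (rank 285) and 11q22.3 (rank 413). 11q22.2, with 5 peaks, was not ranked. The intervals of the low bands overlap that of 11q21.

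A few isolated peaks of the rest of 11q were tall or of high fold. In 11q22.3 a peak (109216864 to 109217877) had a pileup of 114 and the second highest fold of the chromosome, 57.3. In 11q22.1 there were 2 close in rank (100621609 to 100622628 and 100429224 to 100429872), with folds of 53.2 and 47.3. The tallest of the rest of 11q (116071326 to 116072233, 11q23.3) reached a pileup of 124 at a fold of 43.3, and the tallest of 11q25 (130468957 to 130469577) a pileup of 104 at a fold of 32.8. The longest stretch of the chromosome without a peak also lay here, 1.32 Mb in 11q22.1 (97384055 to 98705999), with another of 0.907 Mb just before it (96339766 to 97246309). Sequence to which reads do not map was not taken into account.

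The rest of 11p was the sparsest of the 5 zones, though 11q14 to 11q22, within the rest of 11q, had 5.95 per Mb (5.15 to 6.84). The 250 peaks of the rest of 11p in 40.5 Mb gave 6.17 per Mb (5.43 to 6.98), against 9.14 (8.53 to 9.78) in the other zones together. The fitted ratio was 0.688, with an interval that just spans 1 (0.466 to 1.02). Its 10 bands with a peak ranged from 4.18 per Mb in 11p11.12 to 7.78 in 11p11.2, with 5.74 in 11p13, the band of the developmental genes WT1 and PAX6. The small pericentromeric band 11p11.11 had 0 peaks in 0.0508 Mb of sequence, which allows up to 59.1 per Mb by a count of 0.

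Its peaks were spaced widely, with a median of 105 kb between neighbouring midpoints, compared with 13.42 kb in 11p15.5, 33.9 kb in 11q13, 61.0 kb in the olfactory receptor bands and 78.6 kb in the rest of 11q. Median width was 420 bp (397 to 437), against 440 bp in the other zones together, median pileup was 23 in both, and median fold was 11.9 (10.8 to 12.8), against 11.09. A fold of at least 30 was reached by 8.00% of its peaks (4.96 to 12.09%), compared with 8.75% in 11p15.5, 8.16% in the olfactory receptor bands, 4.17% in 11q13 and 3.11% in the rest of 11q (1.75 to 5.08%), and with 7.73% on the other chromosomes. The peak of highest fold on the chromosome (36467757 to 36468833, 11p12) reached a pileup of 101 at a fold of 69.9 over a background of 0.4602, the lowest value in the list, which 903 peaks share, 51 of them on chromosome 11. Others stood in 11p14.1 (28822306 to 28822956), with a fold of 55.4, and in 11p13 (34383297 to 34384257), with 49.7. The peak in 11p14.1 closes a stretch of 0.965 Mb without a peak, and 0.956 Mb were free in 11p15.1 (18787606 to 19743331).

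**Figure D5:**
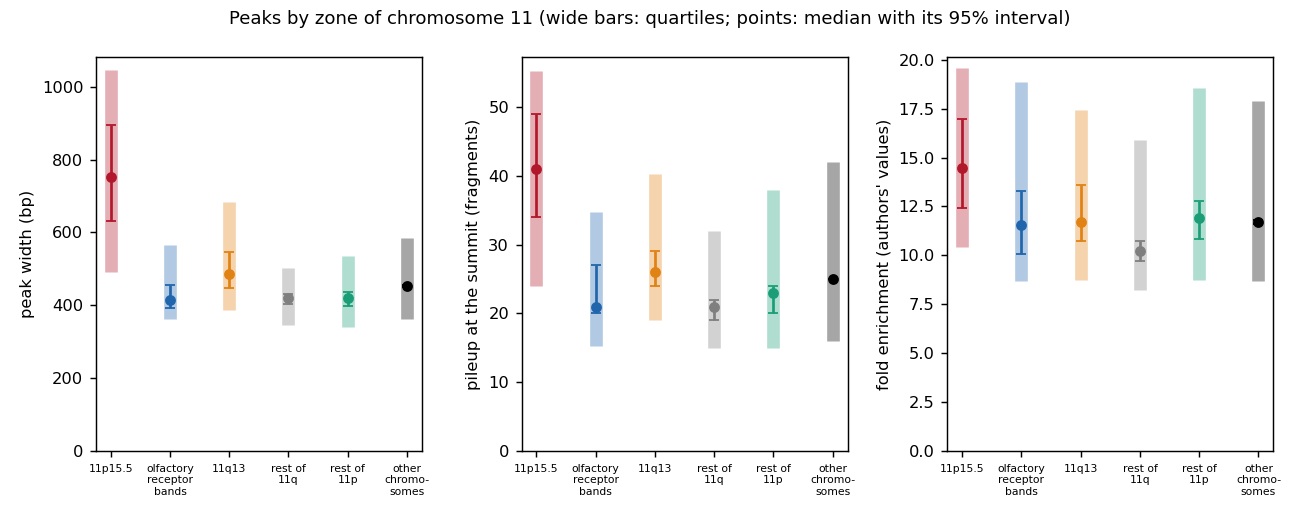
Peak width in bp (left), pileup at the summit in fragments (middle) and fold enrichment (right) for the 5 zones of chromosome 11 and for the other chromosomes. Wide bars run between the quartiles over peaks, and points with bars are medians with 95% intervals. 11p15.5 lies above the other zones in width (751 bp) and pileup (41), and less so in fold enrichment (14.5). In fold its interval overlaps those of 11q13, the olfactory receptor bands and the rest of 11p.

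Across the 35 bands of chromosome 11 with a peak, density and the median width of a band went together (Spearman's rho = 0.449, 0.399 without 11p15.5). Median width and median background did so too (0.493 and 0.453). For density the values were 0.322 and 0.267 with median background, 0.212 and 0.140 with median pileup, and −0.0510 and −0.135 with median fold. Neighbouring bands are not independent and all come from 1 list, so these are descriptions. Across the 1078 peaks, width went with pileup (rho = 0.734) and with background (0.487), and fold enrichment hardly with background (0.0496). The same values were 0.733, 0.478 and 0.0841 over the peaks of the other chromosomes. On chromosome 11 pileup went with fold (0.839) and with background (0.530). Background is computed from pileup and fold, so the value for fold and background does not show that they are independent.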

How the data were processed

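For the 3 samples together, the authors deposited 1 list of peaks. Per the file headers it gives each peak's position, width, summit, pileup (a signal in fragments), fold enrichment, and p and q as −log10. The submitters' processing notes name BWA, SAMtools, bedtools and hg18. The sources used here do not give the peak caller, its control and settings, the pooling or the reads per sample. No peak passed the end of a chromosome on hg18, against 157 on hg19 and 286 on hg38.

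Fold, p and q had lost their decimal points in the deposited table. These were put back by the Poisson relation between pileup, fold and p, which held within 0.01 on the −log10 scale in all 1078 peaks of chromosome 11. Background at the summit is (pileup + 1) / fold − 1. The restoration was tested on simulated data.

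Bands came from circlize 0.4.16 and contigs from IRanges 2.36.0 (R 4.3.3). Fits used statsmodels 0.14.6 (negative binomial, sequenced length as exposure, 826 bands, stain class, and a term for chromosome 11 or for it and a zone), with scipy 1.17.1 and pandas 2.3.3, and were tested on simulated bands. Members, zones and tests were chosen with earlier results of these data known. Of single peaks, the 5 highest of the chromosome by fold, pileup or width and the 3 highest of a zone by fold or pileup are named. No p is given for a zone. No sequence is printed, since no genome of hg18 was used here.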

Additional observations from a re-analysis of the deposited data

How the results depend on the processing

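The density of chromosome 11 against the other chromosomes kept an interval spanning 1 in all 10 alternatives (ratio 0.998 to 1.13). It fell under 1 with peaks of at least median width (0.998); the cause was not tested. The ratio of 11p15.5 stayed above 1 in all 10 (1.82 to 5.58), but its interval spanned 1 with a term for outermost bands (1.82), with band background as a term (1.89) and with peaks within 10 kb joined (2.12). For 11q13 (ratio 1.24 to 1.88) the interval lay above 1 without the stain class (1.76) and with the term for outermost bands (1.63). For the rest of 11p (0.604 to 0.785) it lay under 1 with bands of at least 1 Mb (0.681) and without chromosome 19 (0.679). It also did so without the stain class (0.606) and without the 8 arms of raised background (0.683). Zones were chosen with earlier results of these data known, so these intervals are descriptions and not tests. The olfactory receptor bands (0.759 to 0.958, also with 11p11.12 and 11q24.2 added) and the rest of 11q (0.656 to 0.991) spanned 1 throughout. No band was called by the negative binomial fit in any of 10 alternatives, with 1 or 2 of the 36 at an unadjusted p under 0.05 in each.

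Keeping stronger peaks raises medians by its own construction. Of peaks of at least median fold enrichment, median widths were 505 bp in the olfactory receptor bands, 567 in 11q13, 475 in the rest of 11q and 483 in the rest of 11p, and median pileups were 50 in 11p15.5 and, in those 4 zones in the same order, 34, 39, 34 and 38. Among peaks of at least median width, median folds were 19.8, 14.32, 15.8 and 18.9 in the same 4 zones. In 11p15.5 the median width and fold stayed within their intervals. Joining at 10 kb, band background as a term, the omission of arms and that of the run were chosen after the data were seen. No replicate could be left out. No paired analysis was possible because the list pools the samples, and the depth per sample is unknown.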

Other observations

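Of the 1078 summits on chromosome 11, 2 lay outside the sequenced contigs, and each of these peaks reaches across the edge of a contig. They belong to a peak in 11p15.5 (1152458 to 1152983, 526 bp) and to a peak in 11q13.2 (68848793 to 68849134, 342 bp). Both bands are among the densest of the chromosome.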
